A study of Mus musculus with 11 samples.

Results

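Cryab and 9 heat shock genes (Hspb1, Hspa1a, Hspa1b, Hspa8, Hsp90aa1, Hsp90ab1, Dnajb1, Hsph1 and Hspa5) were followed through every cell class of mouse cerebellum, brainstem and cervical cord. They were chosen by gene symbol, as 10 of the 25827 genes counted, and all 10 were found once each in the gene list of every library. Their unique molecular identifiers (UMIs, one per captured transcript molecule) were summed per library and cell class. Together they took 420129 of 548634633 UMIs in the nuclei kept, or 0.0766%.

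Single nuclei sorted by a DNA dye from male mice of 8 to 12 weeks were sequenced in 11 libraries. All mice carried floxed Il12rb2 alleles (Il12rb2fl/fl, called fl), in which the gene for a chain of the interleukin-12 receptor can be cut out. The NestinCre/+ Il12rb2fl/fl mice (called NestinCre) also carried the Nes-cre transgene, whose Nestin promoter drives Cre in the precursors of neurons and of astrocytes and oligodendrocytes, so microglia and vessel cells are not its intended target. Mice with experimental autoimmune encephalomyelitis (EAE) had received a myelin oligodendrocyte glycoprotein peptide in complete Freund's adjuvant with pertussis toxin and were taken at day 10, and the naive mice had not been immunized. EAE mice gave 8 libraries, 4 per genotype, and naive mice gave 3, of which 2 were fl (numbered 2 and 3) and 1 was NestinCre (numbered 2). In each genotype the first 3 EAE replicates were sequenced in run 1 and the last, replicate 4, in run 2. Of the naive libraries, fl naive 2 was part of run 2, whereas run 3 consisted of the other fl library with the NestinCre one. The labels do not tie libraries to litters or days, so the p-values below measure the spread between libraries. In the fits of all 11 libraries with run as a term, that spread came from the EAE libraries alone.

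Libraries held 40761007 to 86063464 UMIs, 159431 nuclei were kept in all (11595 to 18478 per library), and pairs of libraries shared 47 to 140 barcodes. Il12rb2 itself lay at 11.1 to 16.9 UMIs per 1000000 UMIs (CPM) over all nuclei of the fl EAE libraries and at 8.10 to 16.8 CPM in the NestinCre EAE libraries. These ranges overlap, and since intronic and 3' reads from outside the deleted part are counted as well, the value does not check the deletion. Clusters were named from marker genes into 21 classes, of which 11 had at least 10 nuclei in every library and were tested, and 9.26% of nuclei stayed unnamed.

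The members belong to the machinery that keeps proteins folded. Hspa8 is the constitutive cytosolic HSP70, and Hspa1a and Hspa1b are its stress-inducible relatives. Dnajb1, a J-domain protein, delivers clients to HSP70, and Hsph1, an HSP110, exchanges its nucleotide and holds unfolded clients. Hsp90aa1 and Hsp90ab1 encode the more inducible and the more constitutive cytosolic HSP90. Hspa5 (BiP) is the HSP70 of the endoplasmic reticulum. Cryab and Hspb1 are small heat shock proteins that hold unfolding proteins without using ATP, and Cryab is known as an abundant protein of lens and of myelinating glia. Heat shock factor 1 switches on the inducible members by binding repeats of the letters GAA and TTC.

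In the files' build, GRCm39, the members are protein-coding genes on 6 chromosomes. Hspa1a (chr17:35188166-35191132) and Hspa1b (chr17:35175412-35178214) are neighbours on the minus strand. They are near-identical copies, so the split of reads between them is uncertain. Hsph1 lies at chr5:149537636-149560156 on the minus strand, Hsp90ab1 at chr17:45878552-45891949 on the minus strand, Cryab at chr9:50651859-50668567 on the plus strand and Hspb1 at chr5:135916760-135918417 on the plus strand. Hspa8, Hsp90aa1 and Hsp90ab1 also have processed copies elsewhere in the genome, with which reads may be shared.

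The start regions of the stress-inducible members are shown because these genes were high together in 1 library described below. RefSeq windows (GRCm38.p6) from 250 bases before to 50 bases after a start were found for 6 members. For Cryab, Hspa8, Hsp90aa1 and Hsp90ab1 none was matched. The 250 bases before the start of Hsph1 (chr5:149636316-149636565, minus strand), of Hspa1a (chr17:34972157-34972406, minus strand) and of Hspa1b (chr17:34959239-34959488, minus strand) read as follows, 5' to 3'. Capitals mark matches to GAANNTTC or TTCNNGAA, a pair of facing GAA units.
Hsph1: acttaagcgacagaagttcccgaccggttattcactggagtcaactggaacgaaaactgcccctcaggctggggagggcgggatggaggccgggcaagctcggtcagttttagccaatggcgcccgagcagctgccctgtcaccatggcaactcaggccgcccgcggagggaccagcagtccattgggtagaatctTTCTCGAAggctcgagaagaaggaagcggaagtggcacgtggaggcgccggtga
Hspa1a: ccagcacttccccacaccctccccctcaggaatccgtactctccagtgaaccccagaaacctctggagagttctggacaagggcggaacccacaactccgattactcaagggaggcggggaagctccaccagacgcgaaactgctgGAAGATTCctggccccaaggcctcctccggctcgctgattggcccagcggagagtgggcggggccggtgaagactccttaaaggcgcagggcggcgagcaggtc
Hspa1b: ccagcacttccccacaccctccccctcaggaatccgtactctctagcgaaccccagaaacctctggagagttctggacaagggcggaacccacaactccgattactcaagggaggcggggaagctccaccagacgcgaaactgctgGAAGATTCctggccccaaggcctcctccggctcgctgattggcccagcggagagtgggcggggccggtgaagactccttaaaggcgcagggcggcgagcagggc

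Hspa1a and Hspa1b were the same at 247 of these 250 bases. Both held 1 match, which began 104 bases before the start, and that of Hsph1 began 54 bases before it. A longer match of 3 alternating units (GAANNTTC followed by NNGAA, or TTCNNGAA followed by NNTTC), in capitals in the next line, began 16 bases into the Hsph1 transcript (chr5:149636279-149636308, minus strand). RefSeq holds another Hsph1 start, upstream of this one, from which the shorter match lies 33 bases before and the longer one begins 37 bases in.
Hsph1 3-unit match: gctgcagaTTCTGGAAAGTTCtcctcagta

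Of 32851 promoter windows of 300 bases, searched on both strands, 15.1% held the 2-unit letters and 198 (0.603%) the 3-unit letters, whose matches contain the 2-unit letters. Hspb1 held 2 of the shorter matches, beginning 117 and 97 bases before its start, and the windows of Dnajb1 and Hspa5 held none. These are letter matches, not shown binding sites.

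Each member had its own distribution over the cell classes, described here as levels in the 4 fl EAE libraries (CPM of the class sum, mean ± SD). Cryab was highest in mature oligodendrocytes, the myelin-forming cells, at 187 ± 35.5 CPM (n = 4), from 155 to 237 CPM. No other class reached these values. Endothelial cells followed with 63.5 ± 32.5 CPM (n = 4), resting on 9 UMIs in all, and microglia with 52.5 ± 25.2 CPM (n = 4). Granule cells, the most numerous neurons, were at 43.8 ± 23.7 CPM (n = 4), molecular layer interneurons at 19.7 ± 10.2 CPM (n = 4) and Purkinje cells at 7.47 ± 5.81 CPM (n = 4). From endothelial cells down to Purkinje cells each class overlapped the next in the order. The highest class mean was 25.0 times the lowest.

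The other small heat shock gene, Hspb1, had a different place. It stood at 223 ± 93.3 CPM (n = 4) in endothelial cells, the cells that line vessels, with 227, 302, 273 and 91.2 CPM in fl EAE 1 to 4. Leptomeningeal cells or fibroblasts followed with 10.1 ± 11.7 CPM (n = 4), without overlap, and every other class was at or below 2.54 CPM. The endothelial class was small, with 13 to 16 nuclei in these libraries and 32 Hspb1 UMIs in all, so its levels are imprecise. The other libraries with at least 10 endothelial nuclei showed 193, 101 and 721 CPM in NestinCre EAE 2 to 4, 97.3 and 323 CPM in fl naive 2 and 3, and 179.9 CPM in NestinCre naive 2. The class was too small in NestinCre EAE 1 to be tested in any comparison.

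**Figure D1:**
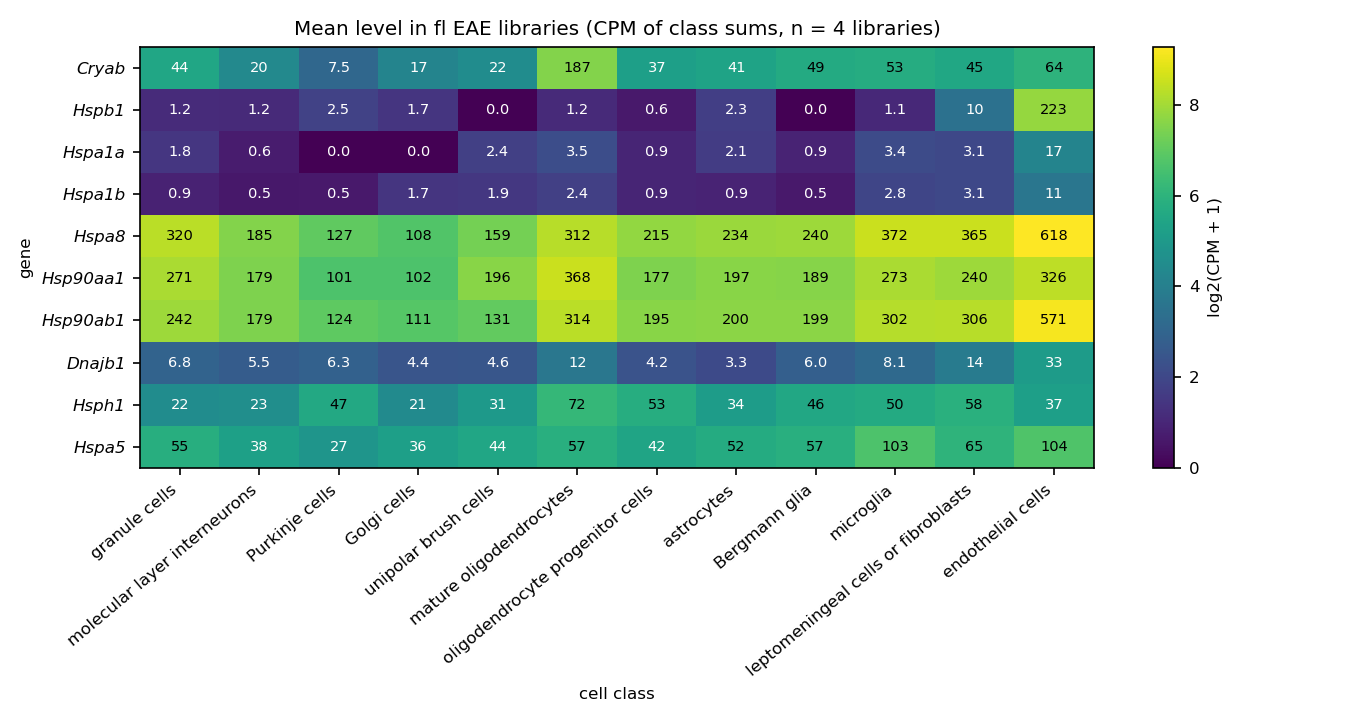
Mean level of each member (rows) in 12 cell classes (columns) of the fl EAE libraries, in CPM of the class sum (printed in the cells, n = 4) and coloured by log2(CPM + 1). Cryab stands out in mature oligodendrocytes and Hspb1 in endothelial cells, and rows are to be read across, since levels of different genes are not corrected for length.

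Hspa8 and Hsp90ab1, the constitutive cytosolic chaperones, were found in all classes. Both were highest in endothelial cells, at 618 ± 181 CPM (n = 4) and 571 ± 164 CPM (n = 4), and lowest in Golgi cells, at 108 ± 12.2 CPM (n = 4) and 111 ± 6.91 CPM (n = 4). The lowest endothelial library for Hspa8 (504 CPM) lay just under the highest of leptomeningeal cells or fibroblasts (506 CPM), and that for Hsp90ab1 (350.2 CPM) lay under the highest of microglia (465 CPM), so these classes overlapped. Hsp90aa1 was highest in mature oligodendrocytes at 368 ± 25.2 CPM (n = 4), which overlapped endothelial cells, and lowest in Purkinje cells at 101 ± 18.8 CPM (n = 4). Hspa5 was highest in endothelial cells (104 ± 56.3 CPM, n = 4) and microglia (103 ± 9.63 CPM, n = 4), and microglia did not overlap the class after them, leptomeningeal cells or fibroblasts, at 65.0 ± 12.4 CPM (n = 4). Hsph1 was highest in mature oligodendrocytes at 71.6 ± 41.3 CPM (n = 4), though each class overlapped the next all the way down to Golgi cells at 20.9 ± 21.7 CPM (n = 4). Dnajb1, Hspa1a and Hspa1b were sparse: outside endothelial cells, where at most 5 UMIs of each were found in these libraries, their class means stayed at or below 13.6, 3.52 and 3.06 CPM.

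The genes most like a member over the 12 class means, by Pearson's r of log2(CPM + 1) among 8421 genes that reached 50 CPM in a class, were Gatm (r = 0.96), Ppp1r14a (r = 0.95) and Cnp (r = 0.94) for Cryab. For Hspb1 they were Ndufa4l2 (r = 0.99), Slco1a4 (r = 0.99) and Lcn2 (r = 0.98), for Hsp90ab1 another member, Hspa8 (r = 0.98), with Tpt1 (r = 0.97) and Bub3 (r = 0.97), and for Hsph1 they were Pepd (r = 0.91), Irs2 (r = 0.90) and Zfp40 (r = 0.90). The class means share libraries, and these values are a description.

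The comparison of fl EAE with fl naive asks which members changed with immunization in mice that could respond to interleukin-12. Hsph1, the HSP110, was higher in mature oligodendrocytes of EAE mice. It stood at 54.8, 51.5, 46.8 and 133 CPM in fl EAE 1 to 4 and at 31.5 and 34.6 CPM in fl naive 2 and 3. In the other genotype it stood at 57.2, 60.1, 54.1 and 68.9 CPM in NestinCre EAE 1 to 4 and at 29.7 CPM in NestinCre naive 2. Every one of the 8 EAE libraries lay above every one of the 3 naive libraries, which was the case for 1 of the 10 members and for 316 of 13591 genes tested in this class (2.33%). In the fit of all 11 libraries with run as a term, the log2 fold change was +1.74 (SE 0.34), a 3.34-fold difference, with an adjusted p of 0.0412 (edgeR quasi-likelihood test, Benjamini-Hochberg within the class). It was the 1 call among 70 of 110 member and class pairs that passed the filter on low counts, where 0.144% of all 102208 gene and class pairs were called, and 0.368% of genes in mature oligodendrocytes were called higher.

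The size of this change leaned on fl EAE 4 and on fl naive 2. Run 1 held no naive and run 3 no EAE library. With run in the model, fl naive 2 was therefore the only library that set the fl naive level. The p-values of this contrast thus measure no spread between naive libraries. Leaving out fl naive 3 gave a change of +1.75. In run 2, fl EAE 4 had the highest Hsph1 level of all libraries. Without it the change was +0.86 (SE 0.22) on the log2 scale, with an adjusted p of 0.0959 (edgeR). Without a run term it was +1.18 with an adjusted p of 0.226 (edgeR). Leaving out fl EAE 1, fl EAE 2 or NestinCre EAE 2 also ended the call, at +1.75, +1.76 and +1.77 with adjusted p of 0.0906, 0.0791 and 0.0504 (edgeR), and leaving out NestinCre EAE 4 raised the change to +2.15. Some pairs passed only once 1 library was left out: without NestinCre EAE 4 they were Hspa1b in mature oligodendrocytes (+3.95, adjusted p = 0.0221, edgeR), Hsph1 in Purkinje cells (+2.68, adjusted p = 0.0142, edgeR) and Cryab in astrocytes (-2.71, adjusted p = 0.0137, edgeR). Without NestinCre EAE 1 they were Cryab, Hsp90ab1 and Hspa1a in mature oligodendrocytes (+0.79, +0.71 and +2.88, each with an adjusted p of 0.0473, edgeR). The share of all genes called in these fits is not given here, so these calls are not read as results about the members.

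In fl EAE 4, Hsph1 was not the only member set apart in mature oligodendrocytes. Hspa1a, inducible HSP70, stood at 9.26 CPM there (33 UMIs) and at 0.936 to 1.96 CPM in fl EAE 1 to 3. Its copy Hspa1b stood at 8.14 CPM (29 UMIs) against 0.312 to 0.637 CPM. Dnajb1 stood at 21.9 CPM against 5.30 to 12.7 CPM. In the 7 libraries of the other groups Hspa1a ranged from 0.307 to 1.96 CPM, Hspa1b from 0.225 to 1.15 CPM and Dnajb1 from 4.58 to 11.3 CPM. All of these lay below fl EAE 4. The constitutive Hspa8 went the other way, with 220.0 CPM in fl EAE 4 and 312 to 360.1 CPM in fl EAE 1 to 3.

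The share of mature oligodendrocyte nuclei with an Hsph1 UMI was 32.0% of 1064 in fl EAE 4, at a median of 3031.5 UMIs per nucleus. It was 10.3% to 10.6% in fl EAE 1 to 3, at medians of 1862 to 2325 UMIs, 9.90% to 14.3% in the NestinCre EAE libraries and 6.60% to 9.04% in the naive libraries. NestinCre naive 2 reached 9.04% at a median of 2911 UMIs. Granule nuclei of fl EAE 4, at a median of 3034 UMIs, held Hsph1 in 5.46%, within the range of 3.65% to 6.11% over all libraries, and no class is known to lack the gene. In microglia, Hsph1 was at 99.5 CPM in fl EAE 4 (29 UMIs) and at 12.6 to 42.1 CPM in the other 10 libraries. In Purkinje cells it was at 80.0 CPM in fl EAE 4 and at 11.9 to 39.5 CPM elsewhere. The Hsph1 difference between fl EAE and fl naive was +1.97 in microglia (adjusted p = 0.385, edgeR) and +2.51 in Purkinje cells (adjusted p = 0.151, edgeR), neither of which passed.

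**Figure D2:**
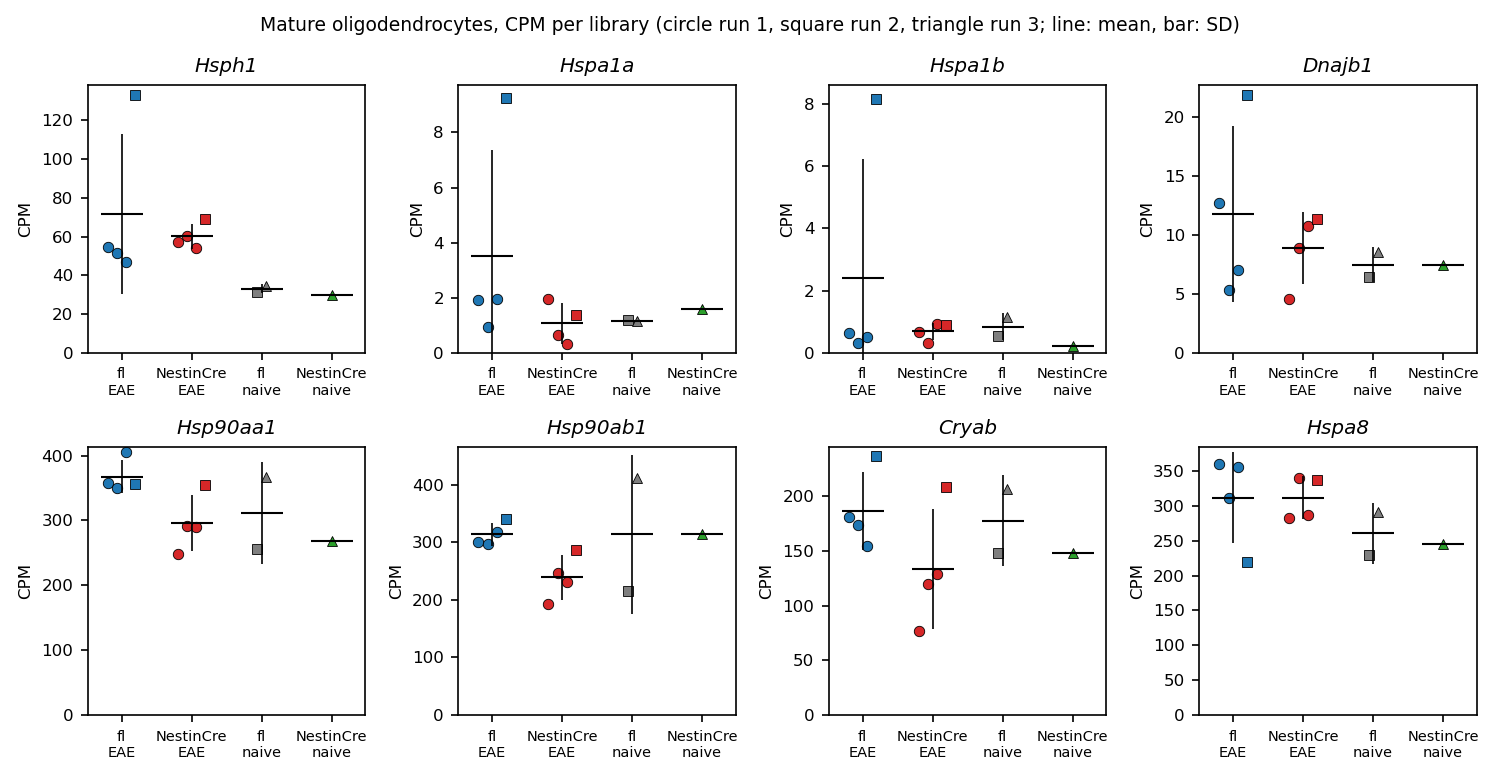
Level in mature oligodendrocytes of 8 members, in CPM per library, by group; lines are group means and bars SD, cut at 0. Replicate 4 of fl EAE, a square, lies above all other libraries for Hsph1 (133 CPM), Hspa1a (9.26 CPM), Hspa1b (8.14 CPM) and Dnajb1 (21.9 CPM), and the 4 NestinCre EAE libraries lie below the 4 fl EAE libraries for Hsp90ab1. How many genes of the class show no overlap between these EAE groups was not counted.

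Over all members in mature oligodendrocytes, 8 of 10 were higher in fl EAE than in fl naive, with a median log2 fold change of 0.80 against -0.01 over all genes of the class. Of the 10, 7 had an unadjusted p under 0.05, against 12.2% of all genes of the class, and 1 passed the adjustment. The near-identical copies Hspa1a and Hspa1b count in these numbers and in the median. They entered this fit but not that of the EAE libraries alone. Only fl EAE 4 set them apart, at 9.26 and 8.14 CPM (nearest fl EAE library 1.96 and 0.637 CPM). The fitted rises of Hspa1a and Hspa1b therefore lean on that library. Counts without that library are not given here, and the counts above are not read as a shift of the whole set. Hsp90ab1 (+0.74, SE 0.17, adjusted p = 0.0667, edgeR), Hsp90aa1 (+0.65, SE 0.18, adjusted p = 0.121, edgeR) and Cryab (+0.86, SE 0.25, adjusted p = 0.139, edgeR) did not pass. Neither did Hspa1b (+3.46, SE 0.99, adjusted p = 0.135, edgeR), Hspa1a (+2.61, SE 0.80, adjusted p = 0.167, edgeR) and Dnajb1 (+1.48, SE 0.52, adjusted p = 0.245, edgeR). With DESeq2, Cryab, Hsp90aa1, Hsp90ab1 and Hsph1 were called higher in mature oligodendrocytes, as were 1.07% of all genes of the class. For Hsp90ab1 the fitted rise leaned on the pair within run 2, since the group means of 314 CPM in fl EAE and 313 CPM in fl naive were nearly equal: fl naive 2 stood at 215 CPM and fl naive 3 at 411 CPM. The means of Cryab were also close, at 187 and 178 CPM, with 148 CPM in fl naive 2 and 207 CPM in fl naive 3. Those of Hsp90aa1 lay further apart, at 368 CPM in fl EAE and 311 CPM in fl naive, with 256 CPM in fl naive 2 and 367 CPM in fl naive 3. In both genes the fl EAE and fl naive libraries overlapped. Over the 11 classes together, with these copies included, 51 of 70 pairs were higher and 14 of 70 had an unadjusted p under 0.05, against 7.73% of all gene and class pairs. Such pairs, here and in the comparisons below, repeat the same genes in the same libraries and are not independent.

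Summed over all nuclei, where the mix of classes also moves a level and fewer cells of a type cannot be told apart from less RNA per cell, no member passed between fl EAE and fl naive, nor did any of the 19249 genes tested (edgeR), and 4 had an unadjusted p under 0.05, against 12.5% of all genes. The largest differences were those of Hspa1a (+1.64, SE 0.32, adjusted p = 0.210, edgeR), Hspa1b (+1.22, SE 0.40, adjusted p = 0.307, edgeR) and Hsph1 (+0.83, SE 0.20, adjusted p = 0.231, edgeR), and DESeq2 called Hspa1a and Hsph1 higher, with 0.514% of all genes. The fitted rise of Hspa1a and Hspa1b leaned on the pair within run 2. Hspa1a stood at 1.27 to 1.61 CPM in the fl EAE libraries and at 0.549 and 1.97 CPM in fl naive 2 and 3, so that fl naive 3 lay above every fl EAE library. For Hspa1b the means were 0.765 CPM in fl EAE and 0.644 CPM in fl naive, and the groups overlapped.

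Between NestinCre EAE and NestinCre naive, a contrast with 1 naive library that is assumed to vary like the others, no pair passed (edgeR), 7 of 70 (10.0%) had an unadjusted p under 0.05, against 6.06% of all pairs, and 0.046% of all pairs were called. DESeq2 called none either. Hsph1 in mature oligodendrocytes differed by +1.70 (SE 0.53, adjusted p = 0.293, edgeR), and without NestinCre EAE 4 by +2.47 (adjusted p = 0.00767, edgeR), which passed. The difference between the genotypes in the response of this gene was -0.04 (SE 0.44) on the log2 scale. In that test of the interaction 0 of 70 pairs passed (edgeR), none had an unadjusted p under 0.05, DESeq2 called none and 0.00489% of all pairs were called. Between NestinCre naive and fl naive 0 of 70 pairs passed (edgeR), again with none at an unadjusted p under 0.05 and none called by DESeq2 and 0.00587% of all pairs called, and 58 of the 70 were lower in the 1 NestinCre library.

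The comparison of NestinCre EAE with fl EAE asks which members differed once Il12rb2 was targeted for deletion in cells of neural origin. Hsp90ab1, the constitutive HSP90, was lower in mature oligodendrocytes of NestinCre EAE mice. It stood at 299.9, 296, 318 and 340.1 CPM in fl EAE 1 to 4 and at 192, 247, 230.4 and 286 CPM in NestinCre EAE 1 to 4. The groups did not overlap, though the share of all genes of the class without overlap was not counted. The difference had the same direction in both runs, at -0.45 on the log2(CPM + 1) scale in run 1 and -0.25 in run 2. Run 2 held 1 EAE library per genotype. The fitted log2 fold change was -0.41 (SE 0.09), with an adjusted p of 0.0446 (edgeR), from means of 314 and 239 CPM. It was the 1 call among 61 of 110 pairs that passed the filter, a share near the 1.26% called among all 78768 gene and class pairs. In mature oligodendrocytes 0.297% of genes were called lower. The naive libraries spanned 215 to 411 CPM, a wider range than that of the 8 EAE libraries.

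The call was narrow. Over 17 alternatives the change ran from -0.45 to -0.35 and the adjusted p from 0.00757 to 0.164, and it was called in 4 of them. Leaving out any 1 of the 8 libraries ended it, with an adjusted p of 0.0587 to 0.150 (edgeR). Without NestinCre EAE 2, Hsph1 in microglia passed in its place (-1.22, adjusted p = 0.0271, edgeR). A cluster of mature oligodendrocytes led by Prr5l, with the interferon-induced GTPase gene Iigp1 among its 10 leading genes, held 6.66% to 17.6% of this class in the NestinCre EAE libraries and 0% to 4.04% in the fl EAE libraries. Without that cluster the Hsp90ab1 difference was -0.43 (SE 0.10), with an adjusted p of 0.0560 (edgeR). Within NestinCre EAE 1 to 4, Hsp90ab1 stood at 222, 283, 224 and 298 CPM in the cluster and at 184, 244, 232 and 284 CPM in the other mature oligodendrocytes, so nuclei of the cluster were not lower in 3 of 4 libraries.

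Hsp90aa1 and Cryab were also lower in mature oligodendrocytes of each NestinCre EAE library of run 1 than in those of fl EAE. Hsp90aa1 stood at 358, 351, 405 and 357 CPM in fl EAE 1 to 4 and at 249, 291, 290.0 and 354 CPM in NestinCre EAE 1 to 4 (-0.33, SE 0.10, adjusted p = 0.169, edgeR). Cryab stood at 181, 174, 155 and 237 CPM in fl EAE 1 to 4 and at 76.9, 119, 129 and 208 CPM in NestinCre EAE 1 to 4 (-0.54, SE 0.14, adjusted p = 0.0995, edgeR). The Cryab groups overlapped only through NestinCre EAE 4, and in each run the fl libraries were higher. Neither gene passed, though DESeq2 called Cryab with an adjusted p of 0.0201, where it called 0.47% of genes in this class lower. Hspa5, the chaperone of the endoplasmic reticulum, leaned the other way, from 43.0 to 72.3 CPM in fl EAE and from 67.1 to 83.5 CPM in NestinCre EAE (+0.43, SE 0.14, adjusted p = 0.253, edgeR). Hspa8 (+0.02), Hsph1 (-0.16) and Dnajb1 (-0.36) were further from passing, and Hspb1, Hspa1a and Hspa1b were too sparse in this class to enter the fit. Of these, Hsph1 and Hspa8 changed direction between the runs. On the log2(CPM + 1) scale Hsph1 was at +0.16 in run 1 and -0.94 in run 2, and Hspa8 at -0.17 and +0.61. Run 2 held 1 EAE library per genotype.

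**Figure D3:**
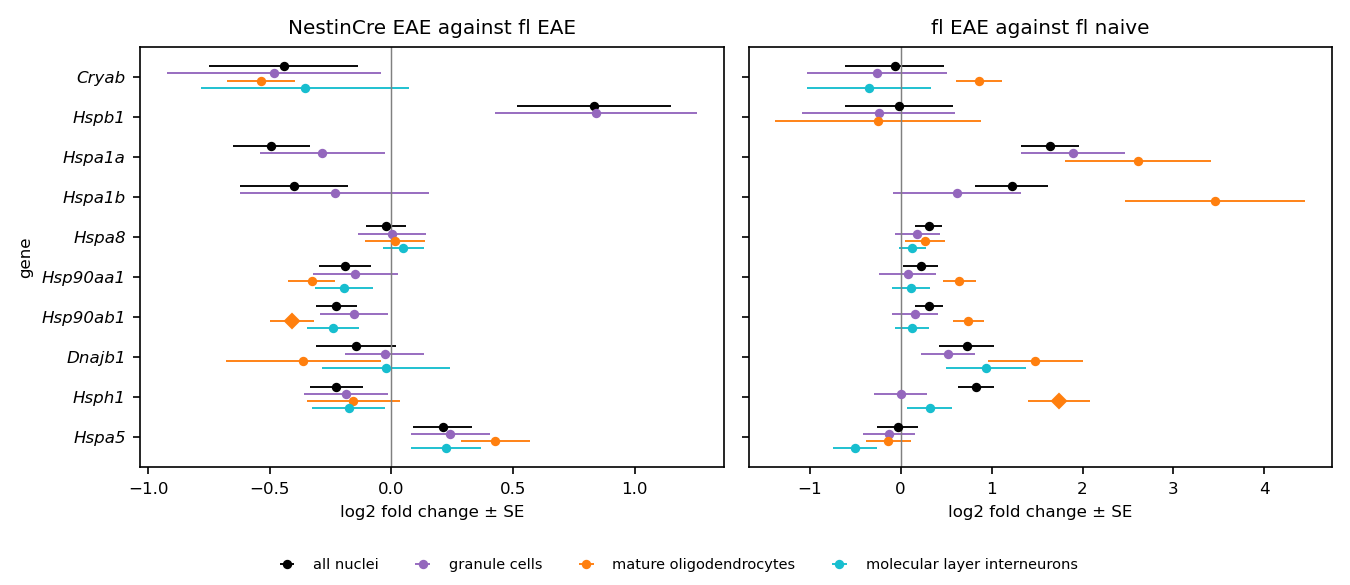
Fitted log2 fold change of each member with its SE (bars), NestinCre EAE against fl EAE on the left and fl EAE against fl naive on the right, over all nuclei and in 3 classes; diamonds mark the pairs that passed. The 2 diamonds are Hsp90ab1 (-0.41) and Hsph1 (+1.74), both in mature oligodendrocytes, and a member with no point in a class did not pass the filter on low counts.

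Over all 61 pairs, 44 were lower and 17 higher in NestinCre EAE, with a median log2 fold change of -0.16. The pairs repeat the same genes in the same libraries, so they are not independent. The share of all gene and class pairs that were lower was not counted. The median of the 11 class medians over all genes was 0.00. Of the pairs, 13 (21.3%) had an unadjusted p under 0.05, against 8.38% of all gene and class pairs. Summed over all nuclei no member passed (edgeR), where 3.38% of all genes were called, and 3 of 10 had an unadjusted p under 0.05, against 10.6% of all genes. Those 3 were Hsp90ab1 (-0.23, SE 0.09, adjusted p = 0.336, edgeR), Hspa1a (-0.49, SE 0.16, adjusted p = 0.213, edgeR) and Hspb1 (+0.83, SE 0.32, adjusted p = 0.349, edgeR).

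In granule cells, Cryab differed between the genotypes in opposite directions in the 2 runs that held EAE libraries. It stood at 42.2, 43.7 and 73.6 CPM in fl EAE 1 to 3 and at 17.5, 29.5 and 25.9 CPM in NestinCre EAE 1 to 3, all of run 1. In run 2 it stood at 15.6 CPM in fl EAE 4 and at 51.9 CPM in NestinCre EAE 4. The naive libraries stood at 51.3 and 56.0 CPM (fl naive 2 and 3) and 46.3 CPM (NestinCre naive 2). The log2 ratio of NestinCre to fl, with 1 CPM added to each mean, was -1.10 in run 1 and +1.67 in run 2. Other members turned in the same way in granule cells. They were Hspa8 (-0.20 and +0.70), Hsp90aa1 (-0.37 and +0.61), Hsp90ab1 (-0.33 and +0.47) and Hsph1 (-0.35 and +0.40). Dnajb1, Hspa1a and Hspa1b did so too, whereas Hspb1 and Hspa5 were higher in NestinCre EAE in both runs. In run 2 each ratio rested on 1 library per genotype. The share of all genes that turned in granule cells was not counted, so the turn is not read as particular to the members. In the fit of all 8 EAE libraries the Cryab difference was -0.48 (SE 0.44) with an adjusted p of 0.898 (edgeR), and it did not pass.

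Taken from run 1 alone, Cryab was called lower in NestinCre EAE in granule cells (-1.11, SE 0.23, adjusted p = 0.0473, edgeR; 0.057% of genes called lower), in microglia (-1.61, SE 0.38, adjusted p = 0.0189, edgeR; 1.05% of genes) and over all nuclei (-0.87, SE 0.19, adjusted p = 0.0464, edgeR; 0.05% of genes). Leaving out fl EAE 4 or NestinCre EAE 4 gave the same calls, since the other library of run 2 then has no partner. In the fit of all EAE libraries Cryab did not pass in microglia (-0.90, SE 0.40, adjusted p = 0.234, edgeR) or over all nuclei (-0.44, SE 0.31, adjusted p = 0.761, edgeR). In microglia the NestinCre EAE libraries of run 1 held 12, 13 and 8 Cryab UMIs. The same turn of Cryab between the runs was seen in molecular layer interneurons (-1.13 in run 1 and +1.75 in run 2), microglia (-1.44 and +0.98) and astrocytes (-0.89 and +1.68). It was also seen in Bergmann glia (-2.30 and +2.17) and oligodendrocyte progenitor cells (-0.36 and +1.73), both with few Cryab UMIs. Mature oligodendrocytes, where Cryab is highest, showed no turn of Cryab (-0.64 and -0.19). In a test of the genotype difference between the runs, added after these values were seen and resting on 1 library per genotype in run 2, Cryab changed by +2.67 (SE 0.45, adjusted p = 0.0986, edgeR) in granule cells and by +3.03 (SE 0.49, adjusted p = 0.0509, edgeR) in molecular layer interneurons. No member passed in any class (edgeR), and 1 of 15729 genes in granule cells and 1 of 12392 in molecular layer interneurons did, although 3696 and 1287 of them had an unadjusted p under 0.05.

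Transcripts of oligodendrocytes were also found in granule cells, which do not make myelin. Of 8 oligodendrocyte markers (Mbp, Mog, Mobp, Mag, Cldn11, Opalin, Ermn and Aspa) all 8 were detected in granule cells of every library. Their summed level in granule cells was 382, 381, 601 and 208 CPM in fl EAE 1 to 4 and 318, 443, 375 and 479 CPM in NestinCre EAE 1 to 4, with 492 to 525 CPM in the naive libraries. The libraries lowest in the markers, fl EAE 4 and NestinCre EAE 1, were also the lowest in Cryab, and fl EAE 3 was the highest in both. Within run 1 the marker sums of the genotypes overlapped while Cryab did not, and NestinCre EAE 2 held more of the markers than fl EAE 1 with less Cryab. Cryab per 100 CPM of these markers was 11.1, 11.5 and 12.2 in the fl EAE libraries of run 1, whereas their NestinCre EAE counterparts had 5.51, 6.67 and 6.89. In run 2 the ratio was 7.52 in fl EAE 4 and 10.8 in NestinCre EAE 4. In molecular layer interneurons it was 8.30 to 13.5 in fl EAE 1 to 3 and 4.09 to 6.47 in NestinCre EAE 1 to 3, against 6.02 in fl EAE 4 and 11.4 in NestinCre EAE 4. In microglia the marker sums did not overlap in run 1, at 567, 569 and 676 CPM in fl EAE and 312, 474 and 448 CPM in NestinCre EAE. In mature oligodendrocytes the markers lay between 10054 and 11875 CPM and the ratio between 0.765 and 2.00. Every NestinCre EAE library of run 1 had a lower oligodendrocyte ratio (0.765, 1.18, 1.19) than each fl EAE library of that run (1.59, 1.63, 1.49). For replicate 4 the NestinCre EAE ratio (1.93) was again below that of fl EAE (2.00), unlike in granule cells. Whether the ratio in granule cells followed that in mature oligodendrocytes was not tested. The median ratio in the other tested classes lay from 5.75 (Golgi cells) to 15.9 (oligodendrocyte progenitor cells), above that of mature oligodendrocytes (1.49) in each. How much of the Cryab difference moved with the markers was not tested.

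**Figure D4:**
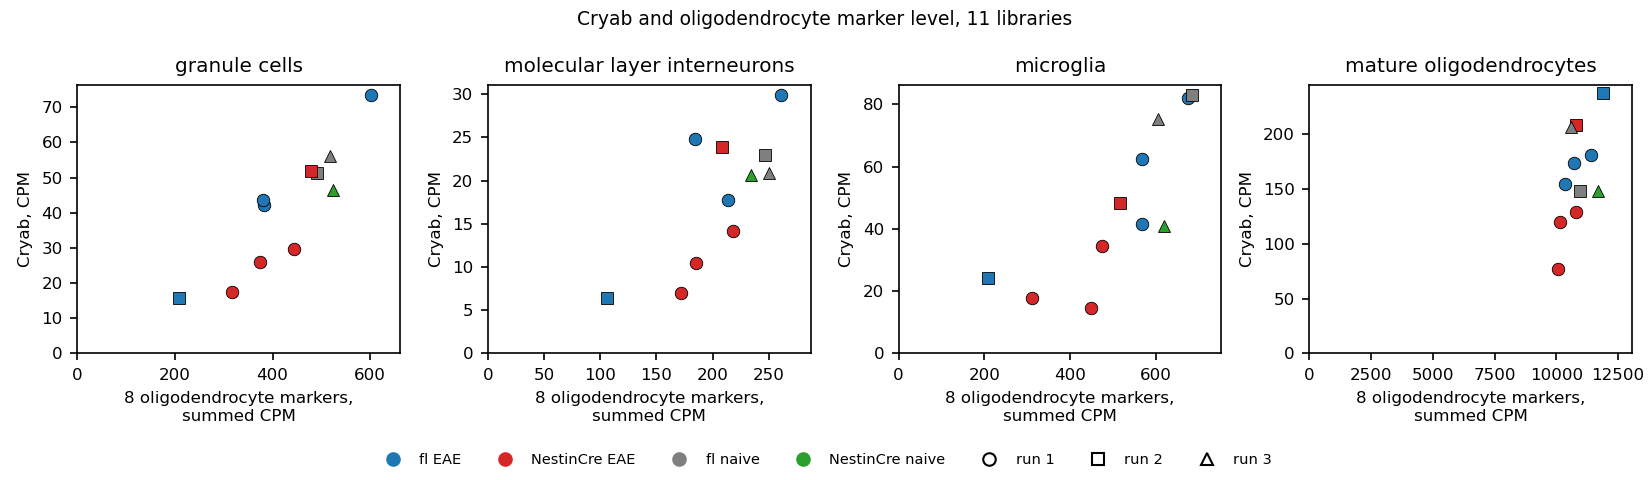
Cryab level (vertical axis, CPM) against the summed level of 8 oligodendrocyte markers (horizontal axis, CPM) in 4 classes, 1 point per library, coloured by group and shaped by run. In granule cells both run from fl EAE 4 (208 and 15.6 CPM) to fl EAE 3 (601 and 73.6 CPM), whereas in mature oligodendrocytes the markers span 10054 to 11875 CPM.

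The share of nuclei with a Cryab UMI in fl EAE 4 was 48.3% in mature oligodendrocytes and 4.81% in granule cells, at medians of 3031.5 and 3034 UMIs per nucleus. Over all libraries it was 15.8% to 48.3% in mature oligodendrocytes and 4.47% to 14.1% in granule cells. The level in mature oligodendrocytes was 15.2 times that in granule cells in fl EAE 4, 2.10 times in fl EAE 3 and 2.89 to 4.98 times in the other 9 libraries. Of Cryab between fl EAE and fl naive, granule cells showed -0.26 (SE 0.77, adjusted p = 0.941, edgeR), which turned to +1.08 without fl EAE 4.

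A wider list of 82 chaperone and stress genes that are not among the 10 members (other small heat shock proteins, HSP70, HSP90 and J-domain proteins, co-chaperones, chaperonins, heat shock factors and genes of the endoplasmic reticulum) was read in the same fits. Between fl EAE and fl naive, 2 of 629 pairs were called higher and none lower, where 0.144% of all gene and class pairs were called. Both were in mature oligodendrocytes, where 72 genes of the list were tested and 0.368% of all genes were called higher. Ahsa1, which activates the ATPase of HSP90, stood at 42.7, 39.6, 41.7 and 70.2 CPM in fl EAE 1 to 4 and at 24.8 and 40.9 CPM in fl naive 2 and 3 (+1.36, SE 0.24, adjusted p = 0.0347, edgeR). Cacybp, which binds HSP90 and ubiquitin ligase subunits, stood at 32.8, 30.6, 41.1 and 47.7 CPM and at 20.9 and 30.7 CPM (+1.13, SE 0.23, adjusted p = 0.0462, edgeR). For both, fl EAE 4 was the highest fl EAE library and the EAE and naive values overlapped. In this class 22 of 72 tested genes of the list had an unadjusted p under 0.05, against 12.2% of all genes of the class, with a median of 0.28 against -0.01 over all genes.

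Between NestinCre EAE and fl EAE, 4 of 494 pairs of the wider list were called, a smaller share than the 1.26% of all gene and class pairs. All 4 were in microglia, 2 in each direction, among 60 genes of the list tested there, where 6.45% of all genes were called. Atf6, a sensor of unfolded protein in the endoplasmic reticulum, was higher, at 270.4, 250.2, 388 and 219.7 CPM in fl EAE 1 to 4 and at 531, 471, 473 and 400.5 CPM in NestinCre EAE 1 to 4 (+0.73, SE 0.16, adjusted p = 0.00636, edgeR). St13, the HSP70-interacting protein Hip, was lower, at 161, 154, 193 and 219.7 CPM against 95.7, 87.4, 119.7 and 132 CPM (-0.74, SE 0.18, adjusted p = 0.0137, edgeR). Dnaja1, a J-domain partner of HSP70, was lower, at 125, 102, 179 and 240.3 CPM against 88.3, 84.7, 109 and 117 CPM (-0.72, SE 0.20, adjusted p = 0.0374, edgeR). The groups overlapped for Dnaja1 and not for Atf6 and St13, and the share of all genes without overlap in microglia was not counted. The remaining call, Hspbap1 (+0.85, adjusted p = 0.0458, edgeR), fell outside the rule of 3 named genes and is named after its values were seen. Microglia numbered 100 to 427 nuclei per library. No gene of the list passed in the other 3 comparisons (edgeR).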

How the data were processed

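The authors deposited counts of UMIs per gene and barcode, 1 matrix per library, not normalized. Per the labels, Cell Ranger 6.0.2 and the GRCm39 genome were used (headers of run 1 name a later Cell Ranger), and per the study's methods intronic reads were counted. Here, nuclei with at least 200 genes (run 1) or 500 genes (runs 2 and 3) and under 5% mitochondrial UMIs were taken. The study gives these limits for its EAE batches, and they were extended to run 3. Its further limit of 6000 UMIs per nucleus was not applied here except as an alternative, which moved the calls between fl EAE and fl naive from 1 to 2. Doublets were treated by leaving out the nuclei with the highest Scrublet scores (a share in proportion to the barcodes of the library) and clusters in which over 40% of nuclei were such, which left 159431 of 189709 barcodes. Scrublet was run through scanpy 1.11.5. After integration (3000 variable genes, 40 components), Leiden clusters from igraph 0.11.9 were named from marker genes, so class limits may differ from those of the study. Of 112 clusters, 57 were named and 17 left out as doublets.

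UMIs were summed per library and class and tested for all genes with edgeR 4.0.16 (R 4.3.3, TMM factors, filterByExpr, quasi-likelihood test, run as a term, Benjamini-Hochberg within a class, threshold 0.05). The procedure was tried on counts simulated without a run effect, so that trial does not bear on how the contrasts depend on run. The SE is the log2 fold change divided by the square root of F. Alternatives included DESeq2 1.42.0, other filters and leaving out each library. Per-library values are given for pairs that passed and for Cryab, and of the wider list at most 3 called genes per comparison are named. Totals of 40761007 to 86063464 UMIs per library set the precision, and counting error alone limits sparse members. The members and lists were chosen with earlier results of these data known. A marker of mature oligodendrocytes is not reported here and was left out of their summed level.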

Additional observations from a re-analysis of the deposited data

Results flagged for a closer look

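In 8 of 60 groups of 4 libraries (10 members, 3 sets of nuclei, both EAE groups), 1 library stood apart from the other 3 by Dixon's test (95% critical value). Chance alone gives this in about 1 in 20 groups. In mature oligodendrocytes, replicate 4 of fl EAE was the high library for Hsph1 (133 CPM, nearest 54.8 CPM), Hspa1a (9.26 CPM, nearest 1.96 CPM) and Hspa1b (8.14 CPM, nearest 0.637 CPM), and replicate 3 of fl EAE for Hsp90aa1 (405 CPM, nearest 358 CPM). In granule cells, replicate 3 of fl EAE was high for Hsph1 (30.3 CPM, nearest 19.8 CPM) and replicate 2 of NestinCre EAE for Hspb1 (3.07 CPM, nearest 1.76 CPM). Over all nuclei, replicate 2 of NestinCre EAE was high for Hspa8 (268.6 CPM, nearest 227 CPM) and replicate 1 of NestinCre EAE low for Hsp90aa1 (167 CPM, nearest 199 CPM). The 3 sets of nuclei share libraries, and mature oligodendrocytes and granule cells are part of all nuclei, so these groups are not independent.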

How the results depend on the processing

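Between NestinCre EAE and fl EAE, 1 member and class pair was called; 0 were called with Benjamini-Hochberg adjustment over all classes and genes together, with doublets kept, without a run term or, added after seeing the data, without the oligodendrocyte cluster with Iigp1 among its leading genes, and 2 with DESeq2, without the filter on low counts or in run 1 only. Leaving out 1 library gave 0 to 2. Between fl EAE and fl naive, 1 pair was called; 0 were called with adjustment over all classes and genes or without a run term, 2 without nuclei over 6000 UMIs, and 4 with DESeq2 or without the filter. Leaving out 1 library gave 0 to 4, and 0 to 1 for NestinCre EAE against NestinCre naive. Over all nuclei, the count of 0 became 1 for the genotypes in EAE in run 1 only (0 to 1 over libraries left out) and 2 for fl EAE against fl naive with DESeq2. The share of all gene and class pairs called under each alternative is not given beside these counts. They are therefore not read as results about the members. Cryab in granule cells between fl EAE and fl naive turned from -0.26 to +1.08 without fl EAE replicate 4 and was at -1.60 without NestinCre EAE replicate 4. The causes were not tested. Without fl naive 2, fl EAE against fl naive and NestinCre EAE against NestinCre naive could not be fitted. Without fl naive 3 or NestinCre naive 2, NestinCre EAE against NestinCre naive, NestinCre naive against fl naive and the interaction could not be fitted, and runs 2 and 3 alone hold too few libraries for a test. Of the values of single genes under alternatives, 75 kept direction and side of the threshold, 8 passed it only there, 19 no longer passed and 1 reversed.

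Replicate numbers of run 1 did not clearly pair the libraries: the correlations of same-numbered libraries' deviations ranged from -0.12 to 0.23 over 4 sets of nuclei, and not every library correlated best with its own number. Over all nuclei the libraries numbered 2 and 3 did (0.23 each) and those numbered 1 did not (-0.06), so pairing is not excluded. With the replicate block in place of run, 0 pairs were called, and Hsp90ab1 in mature oligodendrocytes was at -0.41 with an adjusted p of 0.0994 (edgeR). Low depth limits Hspa1a, Hspa1b, Hspb1 and Dnajb1, which passed the filter in 2 or 3 of 11 classes in the fits of all libraries.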

Other observations

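The nuclei that no marker list named, 6.72% to 13.1% of each library, were fitted apart and entered none of the counts above. In them Hsph1 stood at 68.1 CPM in fl EAE 4 and at 20.6 to 32.4 CPM in the other 10 libraries, and Dnajb1 at 10.7 CPM in fl EAE 4 and at 4.47 to 10.7 CPM in the others. No member passed in these nuclei in any of the 5 comparisons (edgeR), and 2 to 5 of the 7 or 9 members tested per comparison had an unadjusted p under 0.05, against 5.49% to 10.3% of all genes. Of all genes, 47 were called between the genotypes in EAE and 0 in each of the other 4 comparisons. DESeq2 called 3 in them: Hsph1 between fl EAE and fl naive (+1.42, adjusted p = 0.000750; 0.0528% of all genes called higher), Hspa8 between NestinCre EAE and NestinCre naive (+0.86, adjusted p = 0.0406; 0.0352% called higher) and Hsp90aa1 between NestinCre naive and fl naive (-0.63, adjusted p = 0.0338; 0.00587% called lower).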
